A study of Homo sapiens with 10 samples.

Results

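The replication checkpoint and the kinases that hold back mitotic entry were represented by 10 genes: ATM, ATR, CHEK1, CHEK2, CLSPN, TIMELESS, TIPIN, TOPBP1, WEE1 and PKMYT1. They were chosen by name, out of 19962 protein-coding genes, and every Rb peak that overlapped a promoter of one of them was collected. A promoter ran from 2000 bp upstream to 500 bp downstream of any annotated transcript start. In all, 94 such peaks were found, and they fell into 13 sites.

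Rb was profiled by CUT&RUN, in which an antibody steers a nuclease to chromatin and the cut fragments are sequenced. OVCAR-3 and Kuramochi, both established human lines of high-grade serous ovarian cancer and labelled as wild type, supplied the cells. Each line was grown for 2 days with 300 nM INX-315, an inhibitor of the cell cycle kinase CDK2, or with its solvent DMSO. There were 2 Rb libraries for each line and treatment, and 1 library with a non-specific IgG2a antibody from DMSO-treated cells of each line. Every group is a single line at a single dose and time, and the study describes the replicates as biological ones from a single experiment. The p-values therefore refer to the spread between cultures of that experiment, which the main fit shared over genes. Cell number and total Rb were not measured in these files, and the DNA copy number of a locus and its cell line cannot be told apart.

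When forks stall, ATR is recruited to single-stranded DNA and is switched on by TOPBP1, and claspin (CLSPN) together with the fork protection pair TIMELESS and TIPIN passes the signal to the kinase CHK1 (CHEK1). ATM and CHK2 (CHEK2) form the parallel arm that answers double-strand breaks. WEE1 and PKMYT1 lie at the far end, placing inhibitory phosphates on cyclin-dependent kinases so that cells do not divide with unreplicated DNA. Hypophosphorylated Rb binds E2F factors at promoters of S-phase genes, and several checkpoint genes are known E2F targets.

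Depth, as fragments per base of the genome, was 0.380 to 0.501 in the DMSO libraries and 0.216 to 0.421 in those with INX-315, which were thus on the whole shallower. Neither IgG2a list held a peak at a promoter of any of the 10 genes. Peak strength is given as summit height, the number of fragments covering the summit divided by that genome-wide mean. Fragment numbers were recovered from the listed fold enrichment and p-value and are not independent molecules, since duplicates were kept.

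The following promoter sequences show what lies under the peaks at claspin, TIPIN and ATM. They are from hg38, written 5′ to 3′ on the strand of the gene. Capitals mark 3 kinds of motif on either strand, the E2F consensus (TTTCCCGC, TTTCGCGC, TTTGCCGC or TTTGGCGC), the CHR, or cell cycle gene homology region (TTTGAA), and the CCAAT box. A motif on the opposite strand appears as its complement read backwards. CLSPN (chr1:35769959-35770128, minus strand) and TIPIN (chr15:66356666-66356835, minus strand) begin 150 bases before a transcript start and end 20 bases after it. ATM (chr11:108222643-108222942, plus strand) is the intergenic stretch of 300 bases around the median summit.
CLSPN: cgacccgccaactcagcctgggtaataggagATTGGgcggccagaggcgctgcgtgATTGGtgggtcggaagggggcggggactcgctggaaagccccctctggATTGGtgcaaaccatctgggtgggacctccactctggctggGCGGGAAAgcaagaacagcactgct
TIPIN: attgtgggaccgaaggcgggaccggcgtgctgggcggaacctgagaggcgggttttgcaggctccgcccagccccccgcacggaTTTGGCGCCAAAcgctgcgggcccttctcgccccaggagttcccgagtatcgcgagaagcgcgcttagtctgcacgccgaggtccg
ATM: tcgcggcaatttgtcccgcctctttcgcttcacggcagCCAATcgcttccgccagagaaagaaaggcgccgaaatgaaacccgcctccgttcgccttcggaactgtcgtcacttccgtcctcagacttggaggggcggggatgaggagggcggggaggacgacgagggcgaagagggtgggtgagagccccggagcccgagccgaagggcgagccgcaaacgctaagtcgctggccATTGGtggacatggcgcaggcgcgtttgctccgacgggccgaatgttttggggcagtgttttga

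In TIPIN TTTGGCGC occurred on both strands, overlapping to form a palindrome. Claspin had an E2F consensus centred 2 bases before its canonical start, preceded by 3 CCAAT boxes. Some further E2F sites are shown with 11 bases on each side.
CHEK1 (chr11:125625949-125625978, plus strand): ctcaagttttgGCGGGAAAagcgctgcatt
TIMELESS (chr12:56449203-56449232, minus strand): gctgagtccctTTTCCCGCcacccggttta
TOPBP1 (chr3:133661930-133661959, minus strand): ccgcgcggttgGCGCGAAAgtcggttcccg
PKMYT1 beside PAQR4 (chr16:2969245-2969274, minus strand): gccggccagcgTTTCGCGCgccgggctcct

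In windows of 300 bp around the summit of the tallest promoter peak, the E2F consensus occurred at 3 of the 9 members that had a peak in every library (CHEK1, TIMELESS and PKMYT1), beside 12.3% of the 3762 genes with a peak in every library. Windows of the same length around the canonical start held it at 4 of 10 members, among them CLSPN, TIPIN and TOPBP1, beside 3.97% of 19962 genes. CHR occurred at 1 of 9 summit windows, against 7.02%, and CCAAT at 4 of 9, against 34.1%. These are matches of letters and not measured E2F sites.

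Each peak was placed against the annotation in hg38. The ATR site (widest extent chr3:142578365-142579196) had its median summit 41 bp upstream of the start. ATM shared its site (chr11:108221863-108223568) with NPAT, a histone gene coactivator read in the other direction, and the summit lay between the gene starts, 274 bp upstream of the canonical ATM start. For TOPBP1 (chr3:133661355-133662685) the median summit lay at -177 bp, where negative distances are upstream of the canonical start on the strand of the gene, beside a divergent long non-coding RNA. The claspin (chr1:35769096-35770398) and TIMELESS (chr12:56448634-56449518) summits sat 215 and 153 bp downstream of their starts, inside introns.

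The CHEK1 peak (chr11:125625217-125626803) was centred 851 bp downstream of the canonical start, at a cluster of alternative starts, 7 bp from the nearest. The CHEK2 peak (chr22:28741454-28743131) was shared with HSCB, a gene for iron-sulphur cluster assembly, and its summit lay in a coding exon of HSCB, at -437 bp from the canonical CHEK2 start. WEE1 had its main summit 89 bp upstream of the start (chr11:9572863-9574977). TIPIN had a site 4 bp from its canonical start (chr15:66356345-66357247) and another at an alternative start, its summit at -30305 bp, which is also the promoter of the kinase gene MAP2K1 (chr15:66386627-66387850).

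PKMYT1 also had 2 sites, and the taller was not at its canonical start. That site (chr16:2968711-2970492) had its summit 11287 bp downstream of the canonical start, where short PKMYT1 transcripts start and PAQR4, a receptor family gene, starts on the other strand. The site at the canonical start (chr16:2979851-2980978) had its summit 57 bp upstream. Wherever the tallest promoter peak of PKMYT1 is used, the value therefore belongs to the peak shared with PAQR4, and the site at the canonical start is described separately.

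**Figure D1:**
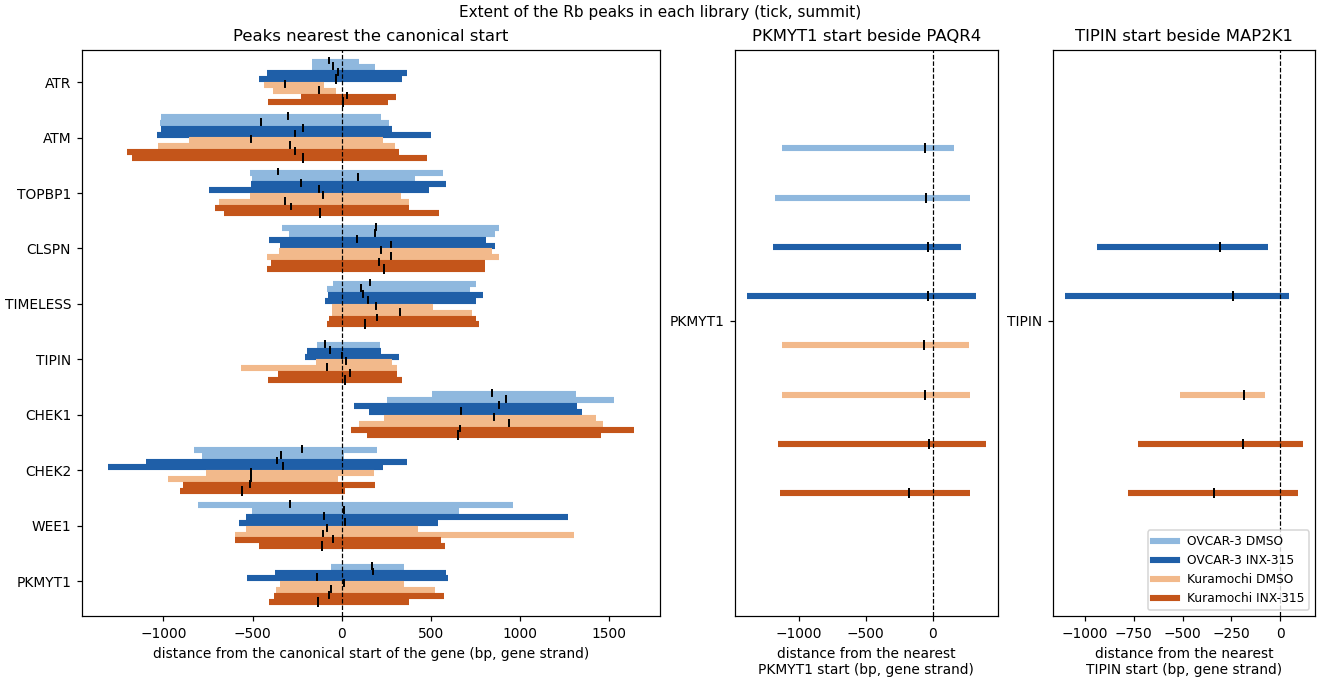
Horizontal bars show the extent of each Rb peak in each library, coloured by line and treatment, with a tick at the summit. The x axes give distance in bp on the gene strand from the canonical start (left) or from the nearest start of the gene (middle and right). The CHEK1 peaks lie downstream of the canonical start, their median summit at 851 bp, and the site of TIPIN beside MAP2K1 is missing in 3 of 8 libraries.

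Nearly all of the genes carried Rb without the drug. In DMSO, 9 of the 10 were bound in OVCAR-3, meaning a promoter peak in both libraries, against 26.8% of all protein-coding genes, and 10 of 10 were bound in Kuramochi, against 24.9%. With INX-315 all 10 were bound in each line, against 55.5% of genes in OVCAR-3 and 53.2% in Kuramochi. TIPIN was the exception in OVCAR-3 in DMSO, with a peak in replicate 2 alone. With canonical starts alone 7 of the 10 were bound in OVCAR-3 in DMSO. At a q of at most 0.001, 8 of the 10 were bound in Kuramochi in DMSO. A gene bound in DMSO cannot be gained, and none of the 10 was gained with INX-315, that is, absent from both DMSO and present in both INX-315 libraries of a line, whereas the gained share of all genes was 16.2% for OVCAR-3 and 14.0% for Kuramochi. A peak in all 8 Rb libraries was found for 9 of the 10, against 18.8% of genes. Without OVCAR-3 DMSO replicate 2, TIPIN would count as gained in OVCAR-3.

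Claspin, the adaptor that brings CHK1 to ATR, had the tallest promoter peak of the group. In OVCAR-3 its height was 182 and 283 without drug and 375 and 447 with it, and the Kuramochi values were 319 and 593 without and 637 and 787 with the drug. Within each line both INX-315 libraries stood above both DMSO libraries. By geometric mean height over 8 libraries claspin ranked 1 among the 3762 genes with a peak in every library, 1 over the DMSO libraries and 4 over the INX-315 libraries. Its peak had the smallest p-value of the whole list in both Kuramochi DMSO libraries, and ranked 41 at the lowest, in OVCAR-3 INX-315 replicate 2. The summit was covered by 90 to 258 fragments.

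**Figure D2:**
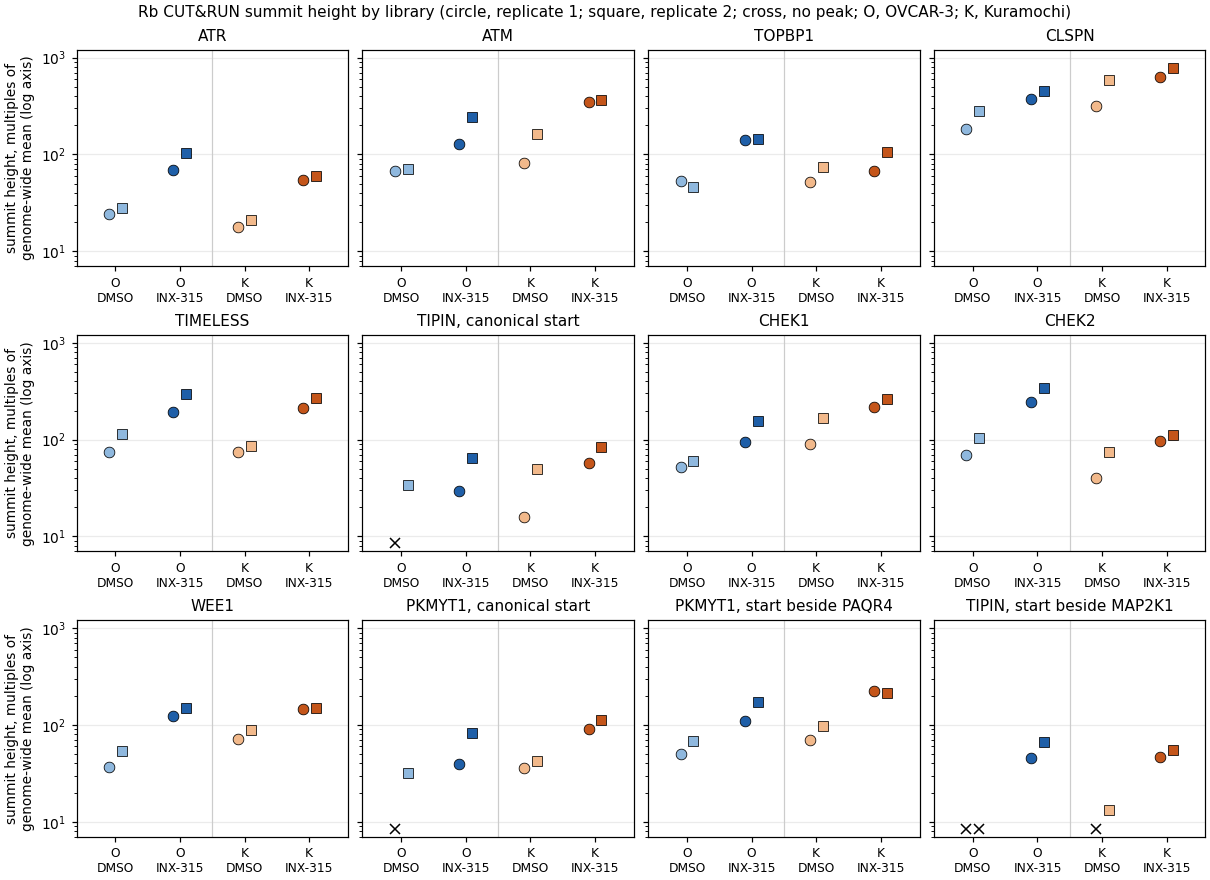
Each panel shows 1 site. The y axis is summit height in multiples of the genome-wide mean on a log axis, and the x axis gives the line (O, OVCAR-3; K, Kuramochi) and treatment, with circles for replicate 1, squares for replicate 2 and crosses where a library had no peak. The claspin points lie highest, from 182 to 787, and the TOPBP1 points of Kuramochi overlap between treatments.

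The fork protection pair differed widely in height. TIMELESS, which travels with the replisome, reached 74.8 and 114 in DMSO and 192 and 297 with INX-315 in OVCAR-3. In Kuramochi it reached 74.1 and 86.9 in DMSO and 212 and 269 with INX-315. Its partner TIPIN had no peak at its canonical start in OVCAR-3 DMSO replicate 1, 33.9 in replicate 2, and 29.4 and 64.2 with INX-315, and these OVCAR-3 values overlapped. In Kuramochi TIPIN rose from 15.7 and 50.0 to 56.8 and 83.4 at that site, groups that did not overlap, but TIPIN was left out of the fit over all 8 libraries because 1 lacked the peak. In fits that could take TIPIN its log2 change was 1.43 with missing peaks set to the lowest height of the list (limma, adjusted p = 0.00179). It was 1.00 without OVCAR-3 DMSO replicate 1. These fits used the tallest promoter peak of each library. In both OVCAR-3 INX-315 libraries that was the site beside MAP2K1, and in the DMSO libraries with a peak the canonical start. The changes therefore mix both sites and do not describe the canonical start alone. The TIPIN site beside MAP2K1 was listed in neither OVCAR-3 DMSO library, had 13.2 in 1 Kuramochi DMSO library, and ran from 45.7 to 66.6 in the 4 INX-315 libraries.

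At the apex of the pathway, ATR had the lowest peak of the 9 fitted members, 24.3 and 27.9 in DMSO and 68.5 and 102 with INX-315 in OVCAR-3. In Kuramochi it had 18.0 and 21.1 in DMSO and 54.3 and 60.2 with INX-315. These heights rest on 8 to 43 fragments. TOPBP1, the activator of ATR, stood at 52.6 and 45.9 in DMSO against 140 and 143 with INX-315 in OVCAR-3, a clear separation. In Kuramochi its DMSO heights of 51.7 and 73.7 overlapped the INX-315 heights of 66.7 and 107.

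The effector kinase CHEK1 had 52.6 and 59.8 in DMSO and 94.6 and 155 with INX-315 in OVCAR-3, and 89.9 and 166 against 220 and 264 in Kuramochi. CHEK2, the kinase downstream of ATM, was tallest in drug-treated OVCAR-3, with 68.7 and 104 in DMSO and 245 and 345 with INX-315 there and 40.4 and 73.7 against 96.3 and 111 in Kuramochi. ATM, the kinase that answers double-strand breaks, had 66.7 and 69.8 in DMSO and 127 and 245 with INX-315 in OVCAR-3, and 80.9 and 163 against 346 and 361 in Kuramochi. For all 3 genes the INX-315 libraries lay above the DMSO libraries within each line.

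WEE1 rose from 36.4 and 53.8 to 124 and 150 in OVCAR-3 and from 71.9 and 89.5 to 146 and 148 in Kuramochi, again without overlap. A smaller peak about alternative starts of WEE1, its summit 1140 bp downstream of the canonical start, was listed in OVCAR-3 INX-315 replicate 2 at 16.6 and in the Kuramochi INX-315 libraries at 27.2 and 46.3, on 7 to 11 fragments. PKMYT1 at the site beside PAQR4 had 50.5 and 67.8 in DMSO and 111 and 174 with INX-315 in OVCAR-3, and 69.6 and 97.4 against 222 and 213 in Kuramochi. At the canonical PKMYT1 start the heights were lower, with no peak in OVCAR-3 DMSO replicate 1, 31.9 in replicate 2, and 39.2 and 83.2 with INX-315. In Kuramochi that start had 35.9 and 42.1 in DMSO and 91.4 and 111 with INX-315, a 2.59-fold difference between geometric means that was not tested because a library lacked the peak.

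Ordered by geometric mean height over the 8 libraries, claspin (411) was followed by ATM (149), TIMELESS (143), CHEK1 (119), PKMYT1 (110), CHEK2 (108), WEE1 (91.8), TOPBP1 (77.5) and ATR (39.5), all in multiples of the genome-wide mean. Claspin was taller than ATM in 8 of 8 libraries and TOPBP1 taller than ATR in 8 of 8. No other neighbours in this order were separated in every library, and each differed on average by less than the SD of the difference over libraries, with WEE1 above TOPBP1 in 6 of 8 and ATM above TIMELESS in 4 of 8. The median height over all 3762 genes was 61.1, below 8 of the 9 members.

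The main question was whether INX-315 changed Rb height at these promoters. Height rose at all 9 fitted members when both lines were averaged (limma, adjusted p of at most 0.00133), against 99.8% of the 3762 genes tested, so the rise itself does not set the group apart. The log2 change was 1.62 ± 0.30 (SE, 8 libraries) at ATR, 1.50 ± 0.29 at ATM, 1.47 ± 0.29 at TIMELESS and 1.35 ± 0.30 at CHEK2. It was 1.32 ± 0.30 at PKMYT1 and 1.25 ± 0.30 at WEE1. The smallest changes were 1.04 ± 0.30 at CHEK1, 0.99 ± 0.31 at TOPBP1 and 0.78 ± 0.24 at CLSPN. The median was 1.32 over the members and 1.64 over all genes, and all 9 members lay below the latter. With the fold enrichment that the authors' caller listed in place of height, the changes at CLSPN (0.33, adjusted p = 0.251) and TOPBP1 (0.51, adjusted p = 0.140) no longer passed.

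The treatments did not overlap in either line, INX-315 being higher, at 8 of the 9 members, against 97.3% of all genes, with TOPBP1 as the exception. An exact permutation test (two-sided, labels exchanged within lines, 36 arrangements) returned its smallest possible p, 0.0556, for each of the 8, and p = 0.111 for TOPBP1. Separation in both lines fixes that smallest p, so it adds nothing to the count above. Taken by line, the rise passed at 9 of 9 members in OVCAR-3, against 99.0% of genes, and at 8 of 9 in Kuramochi, against 95.8%. TOPBP1 in Kuramochi was the member that did not pass, with a log2 change of 0.45 ± 0.43 (SE, adjusted p = 0.302), beside 1.53 ± 0.43 in OVCAR-3.

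**Figure D3:**
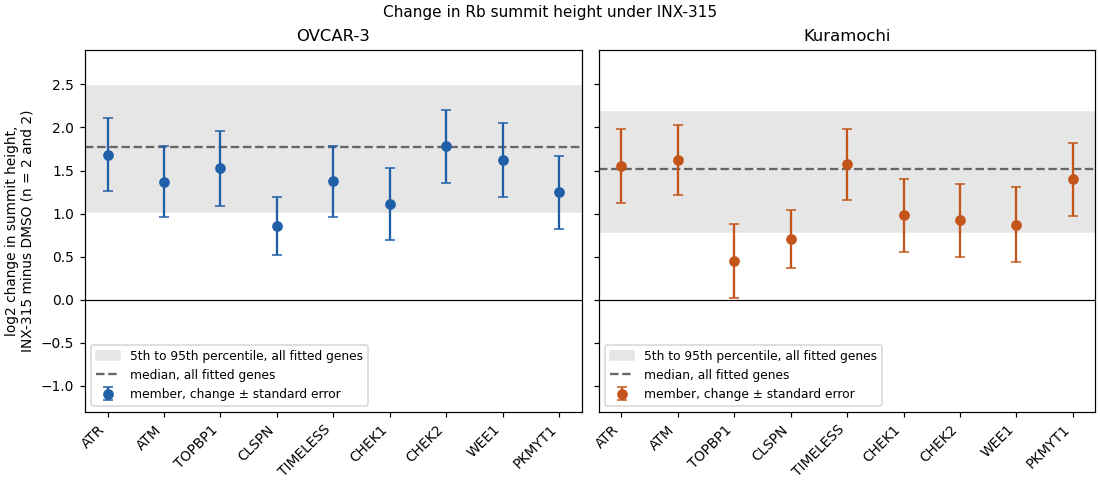
Points show the log2 change in summit height with INX-315 for each fitted member, with bars of 1 standard error, in OVCAR-3 (left) and Kuramochi (right). The grey band covers the 5th to 95th percentile of all 3762 genes and the dashed line their median, 1.78 in OVCAR-3 and 1.51 in Kuramochi, and CLSPN lies below the band in each line, as TOPBP1 does in Kuramochi.

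Because almost every gene rose, each library was also centred on the median log2 height of all fitted genes, which turns the comparison into one of members against the bulk of Rb-bound promoters. On this scale 5 of the 9 members were lower with INX-315, against 15.5% of genes, and 0 were higher, against 9.04%. Claspin fell by 0.90 ± 0.10 on the log2 scale (SE, limma, adjusted p = 2.2e-06), TOPBP1 fell by 0.69 ± 0.18 (adjusted p = 0.00796) and CHEK1 fell by 0.64 ± 0.14 (adjusted p = 0.00255). WEE1 fell by 0.43 ± 0.16 (adjusted p = 0.0577) and PKMYT1 fell by 0.36 ± 0.14 (adjusted p = 0.0822). With the lines averaged, the centred change was -0.33 at CHEK2 (adjusted p = 0.120), -0.21 at TIMELESS, -0.18 at ATM and -0.06 at ATR, none of which passed.

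Claspin, TOPBP1 and CHEK1 were called lower without any 1 of the 8 libraries in turn, with centred changes of -1.01 to -0.74 for claspin, -0.83 to -0.56 for TOPBP1 and -0.76 to -0.55 for CHEK1 over all the settings tried for this scale. These calls average the lines. Taken by line, claspin was lower in OVCAR-3 (-0.99, limma adjusted p = 9.1e-05) and in Kuramochi (-0.81, adjusted p = 0.00383). CHEK1 passed in OVCAR-3 (-0.74, adjusted p = 0.0183) but not in Kuramochi (-0.54, adjusted p = 0.102). TOPBP1 passed in Kuramochi (-1.07, adjusted p = 0.0169) but not in OVCAR-3 (-0.32, adjusted p = 0.476). WEE1 passed in Kuramochi (-0.64, adjusted p = 0.0832) but not in OVCAR-3 (-0.22, adjusted p = 0.594). CHEK2 likewise passed in Kuramochi (-0.59, adjusted p = 0.0832) but not in OVCAR-3 (-0.06, adjusted p = 0.896). PKMYT1 passed in OVCAR-3 (-0.60, adjusted p = 0.0667) but not in Kuramochi (-0.11, adjusted p = 0.776). ATM, ATR and TIMELESS passed in neither line. Of 3762 genes, 334 were lower in OVCAR-3 and 221 in Kuramochi. Passing in a single line is not in itself a difference between lines. No member's centred change differed between lines past the threshold, against 9 of 3762 genes (limma interaction, adjusted p = 0.473 at TOPBP1 and 0.848 at CHEK1). With the lines averaged, the calls at PKMYT1 and WEE1 were less firm. WEE1 was called in 4 of the 8 fits that left out a library and was lost without OVCAR-3 DMSO replicate 2, OVCAR-3 INX-315 replicate 2, Kuramochi DMSO replicate 1 or Kuramochi INX-315 replicate 2, and PKMYT1 was called in 1 of 8, that without OVCAR-3 DMSO replicate 1. Tall peaks in general rose less, with a median log2 change of 1.51 in the tallest 377 genes and 1.66 in the others. When the fit was restricted to those 377 genes and centred on their own median, CLSPN was lower by a log2 change of -0.74 (limma, adjusted p = 4.02e-05). ATM (-0.03) and TIMELESS (-0.05), the other members among them, did not pass. Claspin is the tallest of those genes, so they are not matched to its height. Whether its height accounts for its smaller rise was not tested.

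**Figure D4:**
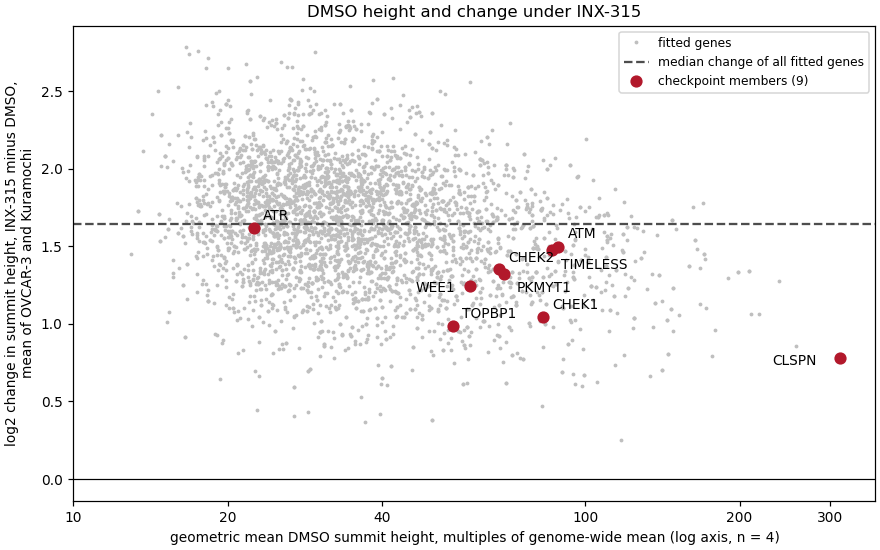
Each point is 1 of 3762 genes. The x axis is the geometric mean DMSO height on a log axis and the y axis the log2 change with INX-315 averaged over the lines, with the 9 fitted members in red. All 9 lie below the dashed median of 1.64, with CLSPN farthest right at a change of 0.78 and ATR at 1.62.

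TOPBP1 went from the 81.2 percentile of height over the DMSO libraries to the 49.9 percentile over the INX-315 libraries, CHEK1 from 93.6 to 81.2 and WEE1 from 84.6 to 70.0. ATR stayed low, at 13.8 and 14.2. Within the lists of all peaks, which were longer with INX-315, percentile rank by p-value changed past the threshold at ATR alone. It rose by 30.1 points (limma, adjusted p = 0.0397). That was 1 of 9 members, against 48.4% of genes that rose on that scale, where the median change of all genes was 14.4 points. In the DMSO libraries ATR stood at percentiles of 8.71 to 62.2. The other fitted members stood at 82.1 or above, so the scale limited how far they could rise.

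Whether the lines responded differently was tested as an interaction. No member passed (limma, adjusted p = 0.998 for each), and 0 of the 3762 genes did. An unadjusted p under 0.05 was found at 99 of the 3762, a share that is itself below 0.05. The difference in log2 change, OVCAR-3 minus Kuramochi, was 1.08 ± 0.61 (SE) at TOPBP1, 0.86 ± 0.60 at CHEK2 and 0.75 ± 0.61 at WEE1, the 3 largest, and -0.25 ± 0.58 at ATM, the lowest.

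Levels were also compared between the lines. In DMSO, CHEK1 (log2 difference -1.12 ± 0.42, SE, limma adjusted p = 0.0781) and CLSPN (-0.94 ± 0.34, adjusted p = 0.0649) were lower in OVCAR-3 than in Kuramochi, 2 of 9 members against 9.91% of genes. With INX-315, CHEK2 was higher in OVCAR-3 (1.49 ± 0.42, adjusted p = 0.0146), 1 of 9 members against 4.89% of genes. The DMSO calls were lost without either OVCAR-3 DMSO library, Kuramochi DMSO replicate 2 or either Kuramochi INX-315 library. The CHEK2 call was lost without OVCAR-3 INX-315 replicate 2 or either Kuramochi INX-315 library. With the listed fold enrichment all 3 were lost, and with percentile rank within the list all 3 were lost as well.

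With libraries centred on the median of all genes more members differed between lines. In DMSO, 4 of 9 members were lower in OVCAR-3, against 16.9% of genes (CHEK1 -0.80, CLSPN -0.62, WEE1 -0.54 and ATM -0.43 on the log2 scale), and 3 of 9 were higher, against 19.8% (CHEK2 0.95, ATR 0.74 and TIMELESS 0.52). With INX-315, 4 of 9 were lower, against 21.9% (ATM -1.01, CHEK1 -1.01, CLSPN -0.80 and PKMYT1 -0.66), and 2 of 9 were higher, against 19.7% (CHEK2 1.48 and TOPBP1 0.74). CHEK1 and CLSPN as lower and CHEK2 as higher in OVCAR-3 were called in all 8 fits that left out a library, under each treatment, but with the listed fold enrichment the CLSPN and CHEK2 calls in DMSO were lost. The calls at WEE1, ATM, ATR and TIMELESS in DMSO were each lost in 2 to 4 of those fits, and with INX-315 TOPBP1 was lost in 2 and PKMYT1 in 1.

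The partners of these genes were read from a list of 26 names that covers the ATR activators, the 9-1-1 clamp and its loader, RPA, the mediators and the CDC25 and CDC7 arms. In DMSO 20 of the 26 were bound in each line, against 26.8% of all genes in OVCAR-3 and 24.9% in Kuramochi, and with INX-315 25 in OVCAR-3 and 26 in Kuramochi, against 55.5% and 53.2%. Peaks in all 8 libraries were present at 17, and height rose at 17 of 17, against 99.8% of genes, with a centred fall at 7 of 17, against 15.5%, and a centred rise at 0, against 9.04%. CDC7, the kinase that fires replication origins, was the tallest partner, with 88.9 and 85.7 in DMSO and 179 and 212 with INX-315 in OVCAR-3, and 157 and 200 against 405 and 551 in Kuramochi. RAD1, a subunit of the 9-1-1 clamp, came next by geometric mean, at 180.

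HUS1, another subunit of the clamp, was the only partner gained with INX-315, 1 of 26 in OVCAR-3, against 16.2% of genes. There it was listed in neither DMSO library and at 26.1 and 49.9 with INX-315. In Kuramochi 0 of 26 were gained, against 14.0% of genes, and HUS1 was listed at 31.6 in DMSO replicate 2. A partner bound in DMSO cannot be gained. The lowest partners were the double-strand break mediator TP53BP1, with a geometric mean of 24.6 over the 6 libraries that listed it, and the clamp loader subunit RFC2, at 26.3 over 8. ETAA1, an activator of ATR that works apart from TOPBP1, was singled out after its values were seen. It had no peak in any of the 4 OVCAR-3 libraries but was listed in all 4 Kuramochi libraries, at 27.0 and 23.7 in DMSO and 32.1 and 60.2 with INX-315.

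**Figure D5:**
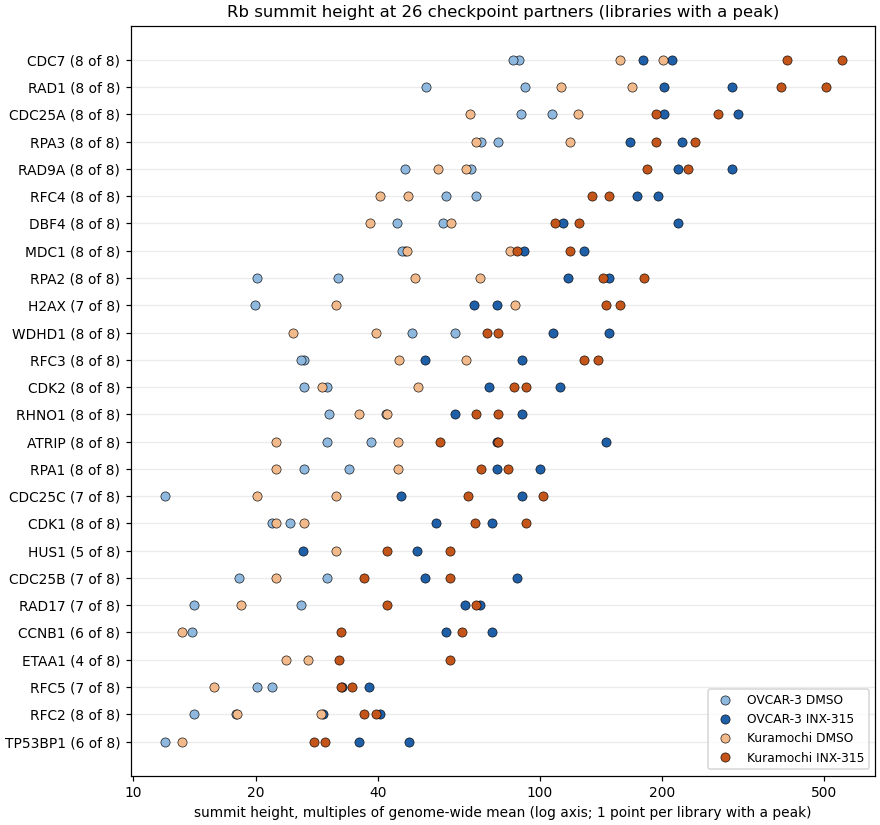
Points show summit height on a log axis, in multiples of the genome-wide mean, at 26 partner genes in each library with a peak, coloured by line and treatment. The number of libraries with a peak stands beside each name, from 8 for CDC7 at the top to 6 for TP53BP1 at the bottom, and ETAA1 has Kuramochi points only.

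The genes whose height followed that of WEE1 most closely over the 8 libraries were TDRD3 (Pearson r = 0.996), RPA2 (0.995) and PPP1R37 (0.995), and those nearest to PKMYT1, leaving out PAQR4, which shares the peak, were ZNF219 (0.995), EFCAB2 (0.995) and CMPK1 (0.994). These are descriptions over 8 points that share 4 groups and their depth, picked as the highest of 3762 genes.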

How the data were processed

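Rb and IgG2a CUT&RUN libraries were prepared from DMSO- or INX-315-treated OVCAR-3 and Kuramochi cells. The authors aligned reads to hg38 and called peaks per library against the IgG2a library of the same line, at a q threshold of 0.05 with duplicates kept. The submitters' processing notes name Bowtie2 2.3.4.1 and MACS2 2.2.7.1. Each deposited list gives the fold enrichment at the summit (a ratio to the local background), and −log10 p and −log10 q as the authors' caller wrote them.

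The fragments covering each summit were recovered by finding the whole number that returns both the listed fold enrichment and p-value, within a relative tolerance of 3e-05. This gave 100% of peaks, with a single solution for at least 98.6% of peaks in every library. Height is that number over the genome-wide mean. Peaks were assigned to GENCODE 44 promoters, and a gene took its tallest promoter peak in each library. Log2 heights of genes with a peak in all 8 Rb libraries were fitted in limma 3.58.1 (R 4.3.3) with 4 group means and a mean-variance trend, with Benjamini-Hochberg adjustment over all fitted genes and a threshold of 0.1. In the main fit each gene took the spread of that trend in place of its own. The standard errors on that scale therefore do not describe single promoters. The pipeline was tested on simulated data. Other steps used Python 3.11.15, numpy 2.4.6, scipy 1.17.1, pandas 2.3.3, pysam 0.24.0 and matplotlib 3.10.9. The study's test of reads was not run here, because reads were not used.

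The members and the partner list were chosen with earlier results of these data known. Named genes were all members, genes sharing a member's peak, partners gained in a line or without any peak, the 2 tallest and 2 lowest partners, and the 3 genes most alike in height to WEE1 and to PKMYT1. Alternatives were other peak measures, centring, promoter widths and q thresholds, a replicate block and leaving out each library. The further settings on the centred scale, canonical starts alone and the tallest genes alone were added after the data were seen. Some promoter sequences are not reported here.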

Additional observations from a re-analysis of the deposited data

How the results depend on the processing

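The rise with INX-315 kept its direction at all 9 fitted members in each alternative on an absolute scale, and the median log2 change over members ran from 1.16 to 1.48 when a library was left out, and was 0.96 with the listed fold enrichment. Centring on the median of all genes turned that median to -0.36 with 0 members higher, and turned each member: ATM -0.18, ATR -0.060, CHEK1 -0.64, CHEK2 -0.33, CLSPN -0.90, PKMYT1 -0.36, TIMELESS -0.21, TOPBP1 -0.69 and WEE1 -0.43. That scale is relative by construction. With percentile rank within the list, 1 member passed, against 48.4% of genes that rose, and the median was 0.199 percentile points, against 14.4 over all genes. CHEK1 (-2.29), CLSPN (-0.076) and TOPBP1 (-4.96) turned, none past the threshold. That scale ends at 100, where CLSPN already stood in both Kuramochi DMSO libraries. The cause was not tested.

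The 5 of 9 members lower on the centred scale, against 582 of 3762 genes, became 3 of 9 with fold enrichment, against 465 genes. With canonical starts 3 of 7 were lower, against 530 of 3364 genes, and CHEK1 and PKMYT1 were not fitted. Among the tallest genes 1 of 3 was lower, against 82 of 377 genes. The number also changed when a library was left out. The 2 members differing between lines in DMSO became 0 with fold enrichment, 7 with centring, 0 with missing peaks at the lowest height, 1 without the trend, 1 with canonical starts and 0 to 3 when a library was left out. With percentile rank the number stayed at 2, but these were other members. They were CHEK2 and TIMELESS, both higher in OVCAR-3, against 716 of 3762 genes. The 1 member differing between lines with INX-315 became 0 with fold enrichment, 6 with centring, 0 with percentile rank, 2 with missing peaks at the lowest height and 0 to 4 when a library was left out. Over all 3762 genes, 451 differed between lines in DMSO and 384 with INX-315 in the main fit. With fold enrichment these became 23 and 69, and with centring 1383 and 1562. Members gained in OVCAR-3 ran from 0 to 1. The cause was not tested.

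With the replicate number as a block, 9 of 9 members still rose, against 3757 of 3762 genes. In that fit 4 members differed between lines in DMSO, against 1164 of the 3762 genes, and 5 with INX-315, against 1064. Over genes, the deviations of same-numbered libraries from their group means were hardly correlated (r of -0.04 in OVCAR-3 and -0.0079 in Kuramochi). That correlation leaves out a shift common to all genes of a library, so a level shared by replicate number was not tested. Low peaks, such as those of ATR and TIPIN, are limited by their fragment numbers.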
